A study of Mus musculus with 19 samples.

Results

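Microtubules are hollow polymers of alpha- and beta-tubulin heterodimers that run along axons and dendrites, carry cargo for motor proteins and give neurons their shape. Gamma-tubulin sits in ring complexes that start new microtubules. Structural microtubule-associated proteins (MAPs) bind along the lattice and stabilise or bundle it, end-binding proteins track growing plus ends, doublecortin-family proteins bind between protofilaments, stathmins bind free tubulin dimers and promote disassembly, and Tppp promotes polymerisation, mainly in oligodendrocytes. Neurons express several alpha- and beta-tubulin isotypes from separate genes that encode similar proteins.

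The 36 genes described here are the tubulins and classical microtubule-associated proteins, taken by symbol from the deposited expression tables: 5 alpha-tubulins, 7 beta-tubulins, 2 gamma-tubulins, 11 structural MAPs, 3 end-binding proteins, 3 doublecortin-family genes, 4 stathmins and Tppp. A row was present for each of the 36, out of 14459 genes in all, and each passed the filter on low counts in both assays. Ribosome profiling reads the short stretches of mRNA that a translating ribosome shields from nuclease (footprints). It was run beside RNA-seq of cytoplasmic RNA, and each lysate supplied both. The mice were males aged P28 to P35 on a C57BL/6 background, either Fmr1 knockout (KO) or wild-type (WT) littermates. Fmr1 encodes FMRP, an RNA-binding protein of neurons that is lost in fragile X syndrome. The knockout is germline, so neurons and glia both lack FMRP. Each biological replicate pooled slices of several mice, and acute slices from both genotypes were rested and then given cycloheximide, which stalls ribosomes, at 100 µg/ml. Per the protocol CA3 was cut away, although the source name gives hippocampal-cortical slices. Each assay had 3 KO and 4 WT libraries, so n is 3 for KO and 4 for WT in every value below, given as mean ± SD. The error beside a log2 fold change is its SE.

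Levels are in TPM, an RSEM abundance scaled for library size and for the 1 length used for each gene. The part of the transcript that this length covers is not given in the sources used here. Tests were run on estimated counts with edgeR's quasi-likelihood test, adjusted over all genes of an assay by Benjamini-Hochberg at 0.05. Library totals were 4.97 to 9.96 M estimated counts for RNA and 15.6 to 22.7 M for footprints. Fmr1 itself checked the labels: its footprints were 4.81 ± 0.222 TPM in KO and 44.4 ± 1.53 TPM in WT, and its RNA was 4.42 ± 0.771 TPM in KO and 17.3 ± 1.46 TPM in WT. Scaling within an assay sets the typical gene at no change, so a shift shared by all genes would not be visible. Low counts varied less between replicates than counting alone would give (variance over mean of 0.158 to 0.406 for genes with 20 to 50 counts), so the p-values may be too small. In bulk slices, fewer cells of a type and less RNA per cell cannot be told apart. Markers of neurons summed to 13773 to 14198 footprint TPM in KO and 14048 to 14144 in WT, and those of oligodendrocytes to 13644 to 14275 in KO and 13952 to 15528 in WT. Microglial markers were lower in KO (632 to 683 footprint TPM in KO and 769 to 787 in WT, 10 of 10 called lower), and 4 of 6 thalamic markers were higher (119.6 to 126 in KO and 86.9 to 114 in WT). Of the oligodendrocyte markers 6 of 12 were called lower and 1 higher. Over all genes tested in footprints, 10.4% were called lower and 8.15% higher. The part of these marker differences in the results below was not tested.

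Footprints of 10 of the 14 tubulin mRNAs rose in KO slices relative to WT, while those of the structural MAPs Map1a, Map1b and Map2 fell. Among the 36 genes, 14 rose and 3 fell in footprints. Over all 14438 genes tested, 8.15% rose and 10.4% fell. The fold change was positive for 30 of the 36, with a median log2 value of 0.11, against -0.00015 over all genes. All KO libraries lay above all WT libraries in 17 of the 36, against 15.1% of all genes, and below them in 3, against 15.6%. The changes were small in size: log2 fold changes ranged between -0.26 for Map2 and 0.40 for Tubb6, and the called rises ran between 1.09-fold for Mapre3 and 1.32-fold for Tubb6.

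**Figure D1:**
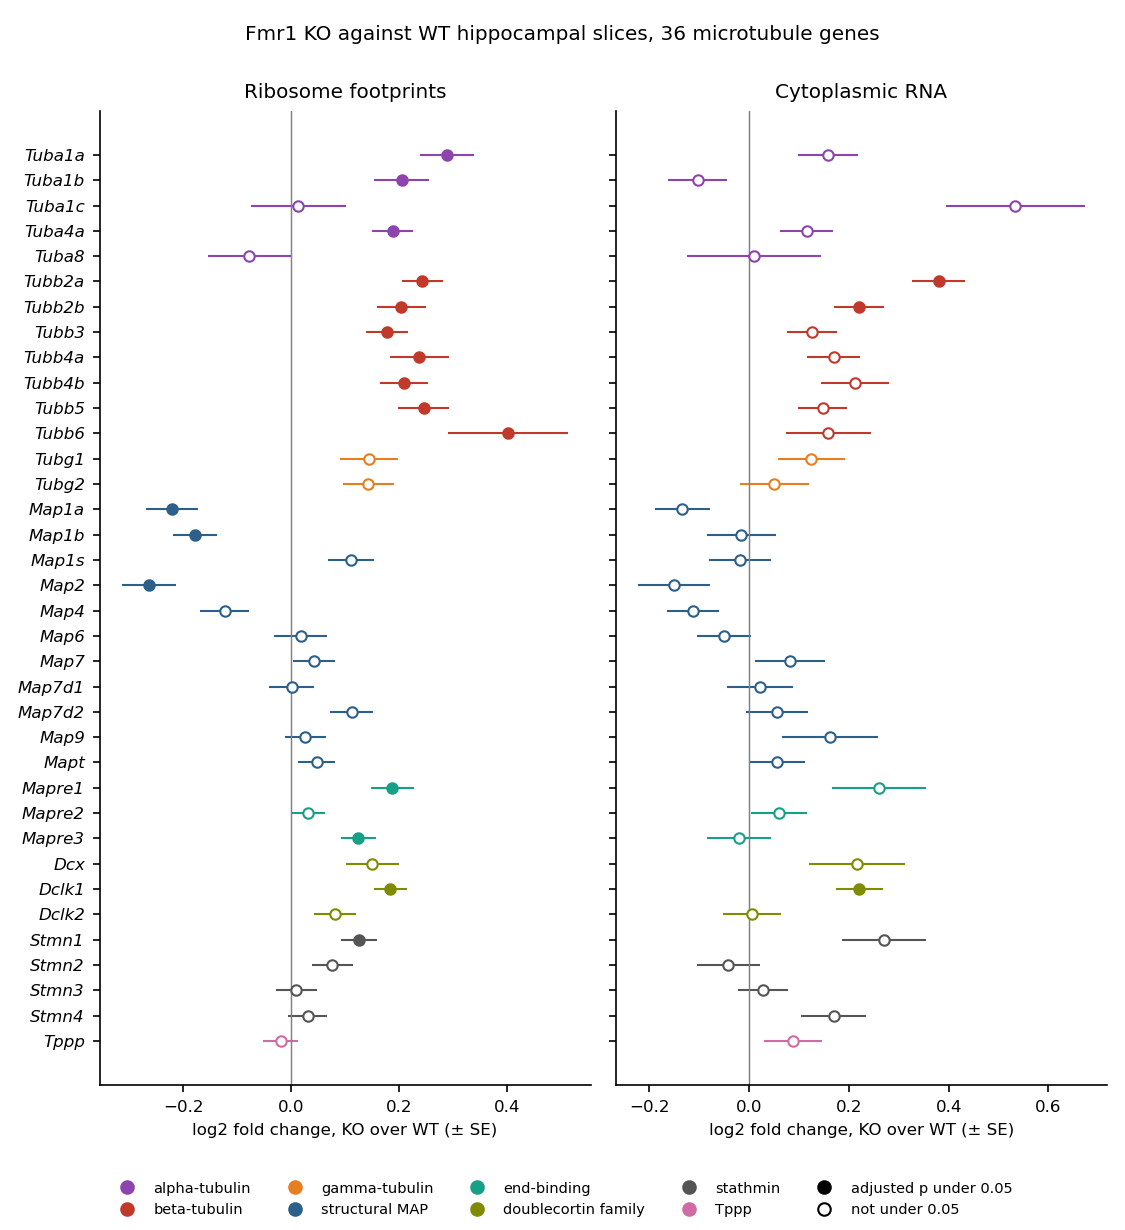
Log2 fold change, KO over WT, with its SE for each of the 36 genes in footprints (left) and cytoplasmic RNA (right), coloured by role, with filled points for an edgeR adjusted p under 0.05. In footprints the filled points are 14 on the positive side, 10 of them tubulins, and 3 on the negative side, Map1a, Map1b and Map2; in RNA they are Tubb2a, Tubb2b and Dclk1.

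The alpha-tubulins supply one subunit of the heterodimer. Tuba1a, the main alpha-tubulin of developing neurons, had footprint levels of 339, 308 and 299.8 TPM in KO libraries, against 252, 235, 277 and 263 TPM in WT libraries. The lowest KO library was above the highest WT library, and edgeR gave a log2 fold change of 0.29 ± 0.050 (edgeR adjusted p = 0.00318), or 1.22-fold.

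Tuba4a, an alpha-tubulin that lacks the encoded C-terminal tyrosine, was the alpha-tubulin with the highest footprint level per length. It had 784, 757 and 722 TPM in KO libraries, against 641, 655, 695 and 643 TPM in WT libraries, and again the groups did not overlap, with a log2 fold change of 0.19 ± 0.038 (edgeR adjusted p = 0.00622). For Tuba1b, a widely expressed isotype, the groups touched: 52.2, 49.2 and 44.7 TPM in KO libraries, against 40.3, 42.0, 44.7 and 41.0 TPM in WT libraries. Its log2 fold change of 0.20 ± 0.050 (edgeR adjusted p = 0.016) passed the test. Without KO replicate 1 the log2 fold change was 0.17 and the call was lost (adjusted p = 0.0572), as it was with all libraries and a replicate block (0.19, adjusted p = 0.0948). Tuba1c and Tuba8 were close to the floor of about 1 TPM that the deposited values show, which compresses fold changes, and neither passed. Tuba1c averaged 1.62 ± 0.155 TPM in KO and 1.601 ± 0.168 TPM in WT, and Tuba8 averaged 5.55 ± 0.399 TPM in KO and 5.79 ± 0.551 TPM in WT.

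On GRCm38.p6, Tuba1a (chromosome 15, 98949847 to 98953501), Tuba1b (chromosome 15, 98931429 to 98934390) and Tuba1c (chromosome 15, 99029891 to 99038105) lie in one stretch of the same chromosome. Tubb2a (chromosome 13, 34074278 to 34078008) and Tubb2b (chromosome 13, 34127008 to 34130354) are likewise close together, as are the gamma-tubulins Tubg1 (chromosome 11, 101119904 to 101126423) and Tubg2 (chromosome 11, 101155874 to 101161787). Of the genes that fell, Map2 lies at chromosome 1, 66175202 to 66442583, Map1a at chromosome 2, 121289590 to 121310832 and Map1b at chromosome 13, 99421464 to 99516602.

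The beta-tubulins supply the other subunit and bind the exchangeable GTP. Each of the 7 rose in KO footprints. Tubb4a, an isotype of neurons and oligodendrocytes and the most covered tubulin here per length, had 1059.7, 953 and 893 TPM in KO libraries, against 778, 784, 890.3 and 815 TPM in WT libraries. KO replicate 1 was the highest library, and KO replicate 3 was just above WT replicate 3. The fitted change was a log2 value of 0.24 ± 0.054 (edgeR adjusted p = 0.0111).

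Tubb5, an isotype found in most cells and abundant in brain, had 645, 617 and 562 TPM in KO libraries, against 489.7, 488, 547 and 516 TPM in WT libraries. The groups were separate, and the log2 fold change was 0.25 ± 0.047 (edgeR adjusted p = 0.00513). Tubb2a, a major neuronal isotype, had 654, 603 and 617 TPM in KO libraries, against 518, 507, 557 and 517 TPM in WT libraries, also without overlap. It rose by a log2 value of 0.24 ± 0.038 (edgeR adjusted p = 0.00203), the smallest adjusted p of the 36 genes in footprints. Tubb2b, an isotype of neurons and glia important for cortical migration, had 137, 126 and 125 TPM in KO libraries, against 109, 104, 120.0 and 114 TPM in WT libraries, where the KO minimum was again above the WT maximum, a log2 fold change of 0.20 ± 0.045 (edgeR adjusted p = 0.00982).

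Tubb3, the neuron-specific isotype, averaged 346 ± 13.9 TPM in KO and 305 ± 12.8 TPM in WT, a log2 fold change of 0.18 ± 0.039 (edgeR adjusted p = 0.00873). Tubb4b, a broadly expressed isotype that is prominent in cilia, averaged 463 ± 28.2 TPM in KO and 398 ± 20.3 TPM in WT, a log2 fold change of 0.21 ± 0.044 (edgeR adjusted p = 0.00786). In both, all KO libraries were above all WT libraries. Tubb6, a minor isotype in brain, had the largest log2 fold change, 0.40 ± 0.11 (edgeR adjusted p = 0.0272), with the largest SE among the genes called. Its levels were 7.42, 5.02 and 7.10 TPM in KO libraries, against 5.12, 4.90, 5.15 and 4.45 TPM in WT libraries. KO replicate 2 lay within the WT range, and the call was lost without KO replicate 1 (adjusted p = 0.11), KO replicate 3 (0.08), WT replicate 2 (0.0505) or WT replicate 4 (0.074). The gene lies near the floor of the values, and DESeq2 gave it no adjusted p.

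Where isotypes share runs of sequence, short footprints can be assigned to the wrong gene, and the values of single isotypes are uncertain for that reason. How much sequence the isotypes share was not computed. Sums over a family do not depend on how reads were divided within it. Summed alpha-tubulin footprints were 1182, 1122 and 1074 TPM in KO libraries, against 941, 938, 1025 and 953 TPM in WT libraries. Summed beta-tubulin footprints were 3347, 3126 and 2968 TPM in KO libraries, against 2583, 2573, 2868 and 2660 TPM in WT libraries. In both sums the lowest KO library exceeded the highest WT library, and the KO mean was 1.17 times the WT mean for alpha and 1.18 times for beta. The ratio of beta to alpha footprints was 2.79 ± 0.0340 in KO and 2.77 ± 0.0300 in WT, a difference within 1 SD of either group. In RNA the ratio was 1.93 ± 0.0357 in KO and 1.80 ± 0.0649 in WT, a difference larger than either SD, and no test was run on it.

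Tuba4a held 67.0% ± 0.630 in KO and 68.3% ± 1.06 in WT of alpha-tubulin footprint TPM, and Tuba1a held 28.0% ± 0.587 in KO and 26.6% ± 1.10 in WT. Tubb4a held 30.8% ± 0.815 in KO and 30.6% ± 0.380 in WT of beta-tubulin footprint TPM, followed by Tubb2a with 19.9% ± 0.812 in KO and 19.7% ± 0.303 in WT and Tubb5 with 19.3% ± 0.405 in KO and 19.1% ± 0.213 in WT. Of alpha-tubulin RNA, Tuba4a held 35.2% ± 0.212 in KO and 34.7% ± 0.470 in WT, and Tuba1a held 46.0% ± 0.318 in KO and 43.9% ± 0.819 in WT. Tuba1b held 18.2% ± 0.405 in KO and 20.9% ± 0.667 in WT of alpha-tubulin RNA, against 4.32% ± 0.140 in KO and 4.36% ± 0.0892 in WT of the footprints. No test was run on these shares.

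The 2 gamma-tubulins did not pass the test in footprints. Tubg1, the widely expressed copy, had 18.3, 16.8 and 15.9 TPM in KO libraries, against 15.3, 14.1, 16.04 and 15.5 TPM in WT libraries, and the groups overlapped, with a log2 fold change of 0.14 ± 0.054 (edgeR adjusted p = 0.0842). Tubg2, the copy enriched in brain, averaged 11.5 ± 0.176 TPM in KO and 10.4 ± 0.261 TPM in WT. Its KO libraries were all above the WT libraries, with a log2 fold change of 0.14 ± 0.046 (edgeR adjusted p = 0.136). With limma on log2(TPM + 1) its adjusted p was 0.0467, on the other side of the threshold.

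**Figure D2:**
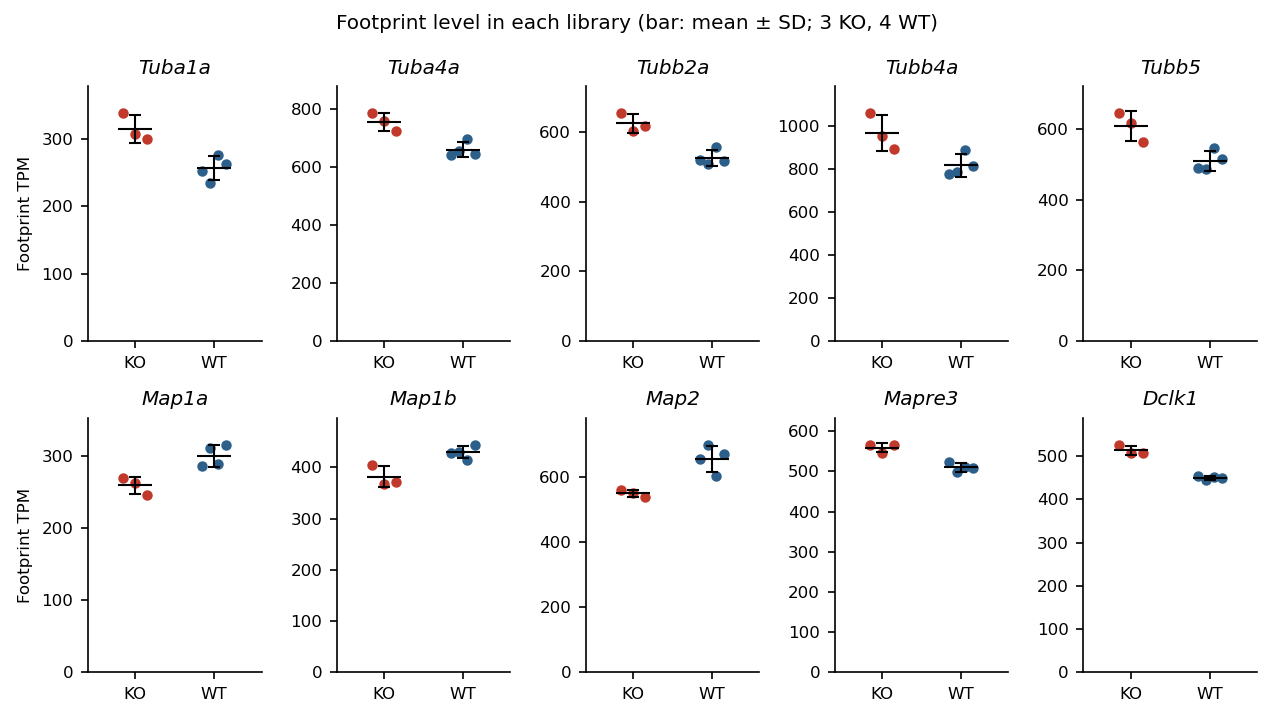
Footprint level in TPM in each library for 10 of the genes described in the text, KO left and WT right, with the mean and SD as bars, on axes that start at 0. In each of the 10 panels the KO points do not overlap the WT points: they lie above in the 5 tubulins, Mapre3 and Dclk1 and below in Map1a, Map1b and Map2. Tubb6 and Tuba1b, which were called higher with overlapping libraries, are not shown.

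Of the 11 structural MAPs 3 fell in KO footprints, none rose and 8 did not pass, with a median log2 fold change of 0.018. Map2, the MAP of dendrites and cell bodies, had footprint levels of 559.9, 552 and 540.0 TPM in KO libraries, against 655, 700.1, 604 and 671 TPM in WT libraries. Every KO library was below every WT library. The log2 fold change was -0.26 ± 0.050 (edgeR adjusted p = 0.00463), or 0.833-fold, and it passed in every alternative setting tried.

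Map1a, a large MAP of mature neurons, had 269, 262 and 245 TPM in KO libraries, against 285, 311, 288 and 315 TPM in WT libraries, with no overlap and a log2 fold change of -0.22 ± 0.048 (edgeR adjusted p = 0.00843). Map1b, its relative in growing axons and a long-studied FMRP target mRNA, had 405, 368 and 372 TPM in KO libraries, against 429, 429, 415 and 444 TPM in WT libraries. The highest KO library was just below the lowest WT library, and Map1b fell, with a log2 fold change of -0.18 ± 0.041 (edgeR adjusted p = 0.0117). Map4, the ubiquitous MAP and here the one with the highest level per length, had 812, 787 and 795 TPM in KO libraries, against 847, 901, 806 and 901 TPM in WT libraries, with one WT library inside the KO range. Its log2 fold change of -0.12 ± 0.045 (edgeR adjusted p = 0.0826) did not pass, although without WT replicate 3 it was -0.16 with an adjusted p of 0.0199. The files do not say which isoform the length of Map2 or Map4 refers to, so their levels per length depend on that choice. The length itself does not enter their KO over WT fold changes in the main fit, but it enters those with a length trend removed. Whether the isoform choice also set which reads were counted is not given, and its part in the fold changes was not tested.

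The other structural MAPs did not pass in footprints. Mapt, which encodes the axonal MAP tau, averaged 473 ± 20.0 TPM in KO and 455 ± 12.8 TPM in WT, a log2 fold change of 0.047 ± 0.035 (edgeR adjusted p = 0.417). Map6, a protein that protects microtubules from cold, averaged 63.9 ± 5.37 TPM in KO and 62.8 ± 2.69 TPM in WT. Map7, Map7d1 and Map7d2, which recruit kinesin-1, had log2 fold changes of 0.042, 0.00073 and 0.11, with adjusted p-values of 0.527, 0.996 and 0.0671. Map7d2 had all KO libraries above the WT libraries, and without WT replicate 1 its adjusted p was 0.032. Map9, a MAP of the mitotic spindle and centrosome, averaged 68.1 ± 1.44 TPM in KO and 66.5 ± 2.76 TPM in WT. Map1s, the short relative of Map1a and Map1b, had a log2 fold change of 0.11 ± 0.042 (edgeR adjusted p = 0.089), opposite in sign to those of its long relatives.

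Map1a and Map1b are much longer than the tubulins, and footprint changes varied with length across all genes. A length term was taken from the count over the TPM of each gene, relative to the median gene. It was 6.28 for Map1a, 5.45 for Map1b and 1.00 for Map2, and 0.947 to 0.962 for the 14 tubulins. Of the 501 genes longer than 4 times the median, 24.6% fell and 1.40% rose in footprints. Of the 4575 genes at 0.5 to 1 times the median, the bin of the tubulins, 7.63% fell and 10.7% rose. With this trend removed within each library, Map2 kept its call with a log2 fold change of -0.27 (edgeR adjusted p = 0.00307), and Map1a kept its call with a smaller one of -0.14 (adjusted p = 0.0446). The log2 fold change of Map1b was then -0.10 and did not pass (adjusted p = 0.0757). In the same setting Map1s (0.13, adjusted p = 0.0313) and Map7d2 (0.12, adjusted p = 0.0383) were called higher and Map4 (-0.13, adjusted p = 0.0477) was called lower. The tubulins that rose kept their calls in that setting. For Map2 and Map4 the correction used length terms of 1.00 and 0.520, and the isoform behind these is not given. It therefore cannot show whether their calls there would hold at the length of another isoform.

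**Figure D3:**
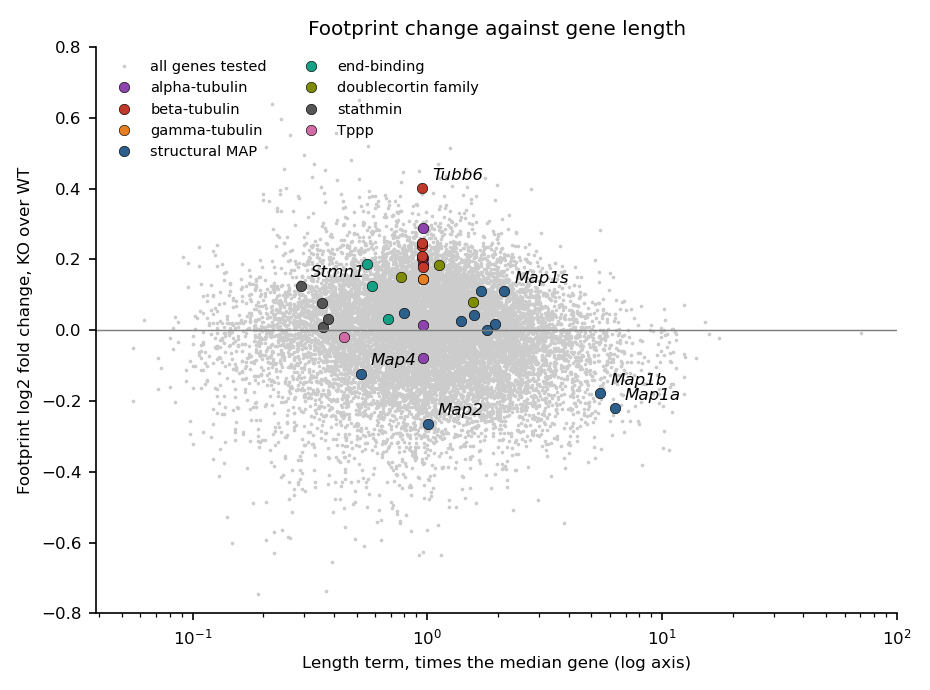
Footprint log2 fold change, KO over WT, against the length term relative to the median gene on a log axis, for all genes tested (grey) and the 36 genes coloured by role; 6 genes lie outside the plotted range of ±0.8. The 14 tubulins form a tight column between 0.947 and 0.962, 13 of them above 0, and Map1a and Map1b lie at the far right below 0.

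The end-binding proteins (EBs) mark growing microtubule tips and recruit other plus-end proteins. Mapre3, the EB enriched in neurons and the one with the highest level per length, had 564, 546 and 566 TPM in KO libraries, against 524, 498, 511 and 508 TPM in WT libraries, without overlap and with a log2 fold change of 0.12 ± 0.033 (edgeR adjusted p = 0.0206). It was not called without KO replicate 3 (adjusted p = 0.0948), WT replicate 2 (0.0518) or WT replicate 4 (0.0609). Mapre1, the broadly expressed EB, averaged 219 ± 2.43 TPM in KO and 191 ± 8.93 TPM in WT, a log2 fold change of 0.19 ± 0.039 (edgeR adjusted p = 0.00751) that held in every setting tried. Mapre2, the third EB, averaged 365 ± 11.8 TPM in KO and 355 ± 2.62 TPM in WT and did not pass (adjusted p = 0.59).

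In the doublecortin family, Dclk1, which joins doublecortin domains to a kinase domain, had 526, 506 and 508 TPM in KO libraries, against 454, 444, 452 and 448 TPM in WT libraries in footprints. The WT libraries lay close together and all KO libraries were above them. The log2 fold change was 0.18 ± 0.031 (edgeR adjusted p = 0.00264). Dcx, the doublecortin of migrating and immature neurons, had 26.1, 25.0 and 25.7 TPM in KO libraries, against 20.9, 23.5, 23.8 and 23.4 TPM in WT libraries, again separate, with a log2 fold change of 0.15 ± 0.049 (edgeR adjusted p = 0.0532). Dclk2 averaged 35.1 ± 1.74 TPM in KO and 33.0 ± 1.197 TPM in WT, and its adjusted p was 0.186. Markers of immature neurons, among which Dcx is not listed, summed to 216 to 226 footprint TPM in KO and 219.8 to 233 in WT.

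The stathmins were among the most covered genes of the set per length. Stmn3 had 1737, 1835 and 1707 TPM in KO libraries, against 1689, 1761, 1769.7 and 1736 TPM in WT libraries, and the groups overlapped, with a log2 fold change of 0.0093 ± 0.038 (edgeR adjusted p = 0.924). Stmn1, the cytosolic stathmin, averaged 1246 ± 42.0 TPM in KO and 1136 ± 22.0 TPM in WT. It rose by a log2 value of 0.13 ± 0.033 (edgeR adjusted p = 0.0203), a call lost without KO replicate 2 (adjusted p = 0.0541) or WT replicate 4 (0.0696). Stmn2, which is anchored to Golgi-derived vesicles in growing axons, averaged 1092 ± 47.7 TPM in KO and 1029.7 ± 26.2 TPM in WT, with an adjusted p of 0.199. Stmn4 averaged 719 ± 16.1 TPM in KO and 700.2 ± 16.5 TPM in WT, with an adjusted p of 0.653. Tppp, an oligodendrocyte protein, had 530.5, 529 and 515 TPM in KO libraries, against 534, 538, 523 and 521 TPM in WT libraries, with overlapping groups and a log2 fold change of -0.019 ± 0.033 (edgeR adjusted p = 0.782).

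Cytoplasmic RNA showed fewer called differences than footprints. Of the 36 genes 3 rose, Tubb2a, Tubb2b and Dclk1, and none fell with edgeR. DESeq2 called 7 higher and none lower. Over the 13877 genes tested, 2.11% rose and 2.77% fell. The median log2 fold change of the 36 was 0.084, against -0.0049 over all genes, and 15 of them had an unadjusted p under 0.05, against 20.5% of all genes. All KO libraries were above all WT libraries in 9 of the 36, against 9.03% of all genes, and below them in 1, Map4, against 10% of all genes. The count of 3 was 5 without KO replicate 3 or without WT replicate 3.

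Tubb2a had RNA levels of 649, 631 and 641 TPM in KO libraries, against 472, 499, 519.8 and 473 TPM in WT libraries. The KO libraries were close to each other and all above the WT libraries. Its log2 fold change was 0.38 ± 0.053 (edgeR adjusted p = 0.00297), and the call held in every setting tried. The difference between the footprint and RNA changes, tested as an interaction of assay and genotype, was a log2 value of -0.14 ± 0.065 (edgeR adjusted p = 0.43) and did not pass. Its share of beta-tubulin RNA was 17.1% ± 0.458 in KO and 15.1% ± 0.548 in WT. Tubb2b had 229, 224 and 226 TPM in KO libraries, against 198, 184, 197 and 198 TPM in WT libraries, also without overlap. The log2 fold change was 0.22 ± 0.050 (edgeR adjusted p = 0.0216), and the call was lost without KO replicate 2 (adjusted p = 0.0556), WT replicate 2 (0.0624) or WT replicate 4 (0.0544). Dclk1 had 579, 536 and 541 TPM in KO libraries, against 488, 461, 457 and 485 TPM in WT libraries, separate again, with a log2 fold change of 0.22 ± 0.047 (edgeR adjusted p = 0.0181) and an adjusted p of 0.0556 without KO replicate 1.

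The RNA fold change was above 0 for 13 of the 14 tubulins, 2 of which passed. The largest was that of Tuba1c, a log2 value of 0.53 ± 0.14 that did not pass (edgeR adjusted p = 0.109). It averaged 4.68 ± 0.606 TPM in KO and 3.35 ± 0.489 TPM in WT, close to the floor. Summed alpha-tubulin RNA was 1937 ± 109 TPM in KO and 1812 ± 118 TPM in WT, with overlapping libraries. Summed beta-tubulin RNA was 3745 ± 153 TPM in KO and 3252 ± 115 TPM in WT, with every KO library above every WT library. Tubb4a, Tubb4b and Tubb5 had RNA log2 fold changes of 0.17, 0.21 and 0.15 with edgeR adjusted p-values of 0.0811, 0.0856 and 0.0963. DESeq2 called all 3, with adjusted p-values of 0.029, 0.0359 and 0.0343. Tuba1b was the tubulin whose RNA fold change was below 0. It had 382, 326 and 351 TPM in KO libraries, against 396, 342, 393 and 382 TPM in WT libraries, with overlapping groups and a log2 fold change of -0.10 ± 0.059 (edgeR adjusted p = 0.355).

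Among the MAPs that fell in footprints, RNA did not pass. Map2 RNA was 214, 199 and 187 TPM in KO libraries, against 213, 226, 194 and 251 TPM in WT libraries, with a log2 fold change of -0.15 ± 0.072 (edgeR adjusted p = 0.251). Map1a RNA had a log2 fold change of -0.13 ± 0.055 (edgeR adjusted p = 0.178), and Map1b RNA one of -0.016 ± 0.068 (edgeR adjusted p = 0.944). In each of the 3 the RNA groups overlapped.

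Promoter sequences of 3 tubulins that rose in footprints are shown, and their activity was not measured. RefSeq sequences on GRCm38.p6 were available for 27 of the 36 genes, as 34 promoter entries. The 200 bases before the annotated start are given for Tubb2a, which also rose in RNA, and for Tuba1a and Tubb5, which did not pass in RNA. Sequences read 5′ to 3′ on the strand of the gene, and capitals mark 3 short motifs. These are the GC box, spelled GGGCGG on the strand shown, and its complement, which is spelled CCGCCC there. The CCAAT box is spelled CCAAT, and its complement in the same way is spelled ATTGG. The TATA motif is spelled TATAA, and its complement in the same way is spelled TTATA.
Tubb2a, chr13:34078009-34078208 (minus strand): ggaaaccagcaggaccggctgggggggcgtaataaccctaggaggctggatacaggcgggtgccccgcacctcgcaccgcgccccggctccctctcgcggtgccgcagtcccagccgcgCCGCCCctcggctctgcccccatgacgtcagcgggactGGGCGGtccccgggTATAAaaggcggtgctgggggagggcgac
Tuba1a, chr15:98953502-98953701 (minus strand): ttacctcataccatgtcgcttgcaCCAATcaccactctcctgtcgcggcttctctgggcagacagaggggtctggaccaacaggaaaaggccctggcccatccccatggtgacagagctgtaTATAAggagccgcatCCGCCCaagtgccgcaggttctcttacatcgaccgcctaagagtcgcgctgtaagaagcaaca
Tubb5, chr17:35838302-35838501 (minus strand): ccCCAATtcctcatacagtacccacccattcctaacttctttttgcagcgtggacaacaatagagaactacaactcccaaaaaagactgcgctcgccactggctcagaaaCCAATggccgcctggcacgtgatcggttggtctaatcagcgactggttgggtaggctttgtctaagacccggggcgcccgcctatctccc
Tubb2a holds 2 GC boxes and 1 TATA motif in this window, Tuba1a holds 1 of each of the 3 motifs, and Tubb5 holds 2 CCAAT boxes. A GC box was found in 16 of the 34 entries, against 31.0% of 32851 promoters of the same length. A CCAAT box was found in 11 of the 34, against 29.3%, and a TATA motif in 11 of the 34, against 18.5%. Such matches are descriptions of letters, not of bound factors.

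Translational efficiency (TE), the change in footprints beyond the change in RNA, was tested as an interaction of assay and genotype. None of the 36 genes passed with edgeR, 2 had an unadjusted p under 0.05, and DESeq2 called 1, Tuba1b. Over 14435 genes edgeR called 0.0139% higher and 0.0208% lower, and 10.8% had an unadjusted p under 0.05. The median log2 TE change of the 36 was -0.018, against -0.0093 over all genes. The lowest adjusted p was that of Tuba1b, with a log2 TE change of 0.30 ± 0.081 (edgeR adjusted p = 0.122), and 0.0471 with DESeq2. The changes of Map2, Map1a and Map1b in TE were -0.12 ± 0.092 (edgeR adjusted p = 0.712), -0.092 ± 0.074 (edgeR adjusted p = 0.732) and -0.17 ± 0.085 (edgeR adjusted p = 0.486). The missed threshold does not show that footprints and RNA changed alike. In simulated data, 4% of genes with a log2 TE change of 0.25 were recovered. Those genes were drawn at random from all genes, and their counts varied more than the real low counts. Recovery may therefore differ for these 36.

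The ratio of footprint TPM to RNA TPM set the genes apart from each other more than it set KO apart from WT. Its median over the 36 was 1.07 in KO and 1.06 in WT, against medians over all genes of 0.787 in KO and 0.785 in WT. In WT the median of the 4 stathmins was 3.66, that of the 3 end-binding genes 2.62, that of the 11 structural MAPs 2.18, that of the beta-tubulins 0.636, that of the alpha-tubulins 0.482 and that of the gamma-tubulins 0.401. The groups overlap. In WT, Dclk2, Map1s, Map6 and Map7d1 lie below the all-gene median. The tubulins Tuba4a (1.05), Tuba8 (0.946), Tubb2a (1.07), Tubb4a (1.05) and Tubb4b (0.863) lie above it.

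Stmn4 had the highest ratio, 4.78 ± 0.161 in KO and 5.24 ± 0.254 in WT, at percentile 99.0 of all genes in WT. Stmn1 followed with 4.28 ± 0.594 in KO and 4.67 ± 0.307 in WT, and Mapt with 4.46 ± 0.176 in KO and 4.47 ± 0.151 in WT. KO and WT differed by less than the KO SD for Mapt and Stmn1 and by more than either SD for Stmn4. Tuba1b had the lowest ratio, 0.138 ± 0.0119 in KO and 0.111 ± 0.00908 in WT, at percentile 0.782 of all genes. Tuba1a, which encodes a nearly identical protein, had 0.354 ± 0.0127 in KO and 0.323 ± 0.0136 in WT, and Tuba4a had 1.11 ± 0.0590 in KO and 1.05 ± 0.0444 in WT. Tuba1c, close to the floor, had 0.348 ± 0.0380 in KO and 0.482 ± 0.0511 in WT. Its log2 TE change of -0.53 ± 0.16 did not pass (edgeR adjusted p = 0.484). The assignment of short footprints among alpha-tubulins bears on this order, and its part was not tested. Among the MAPs the ratio was 2.76 ± 0.138 in KO and 2.99 ± 0.210 in WT for Map2, 1.96 ± 0.135 in KO and 2.19 ± 0.131 in WT for Map1b and 1.03 ± 0.0815 in KO and 1.09 ± 0.0993 in WT for Map1a.

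**Figure D4:**
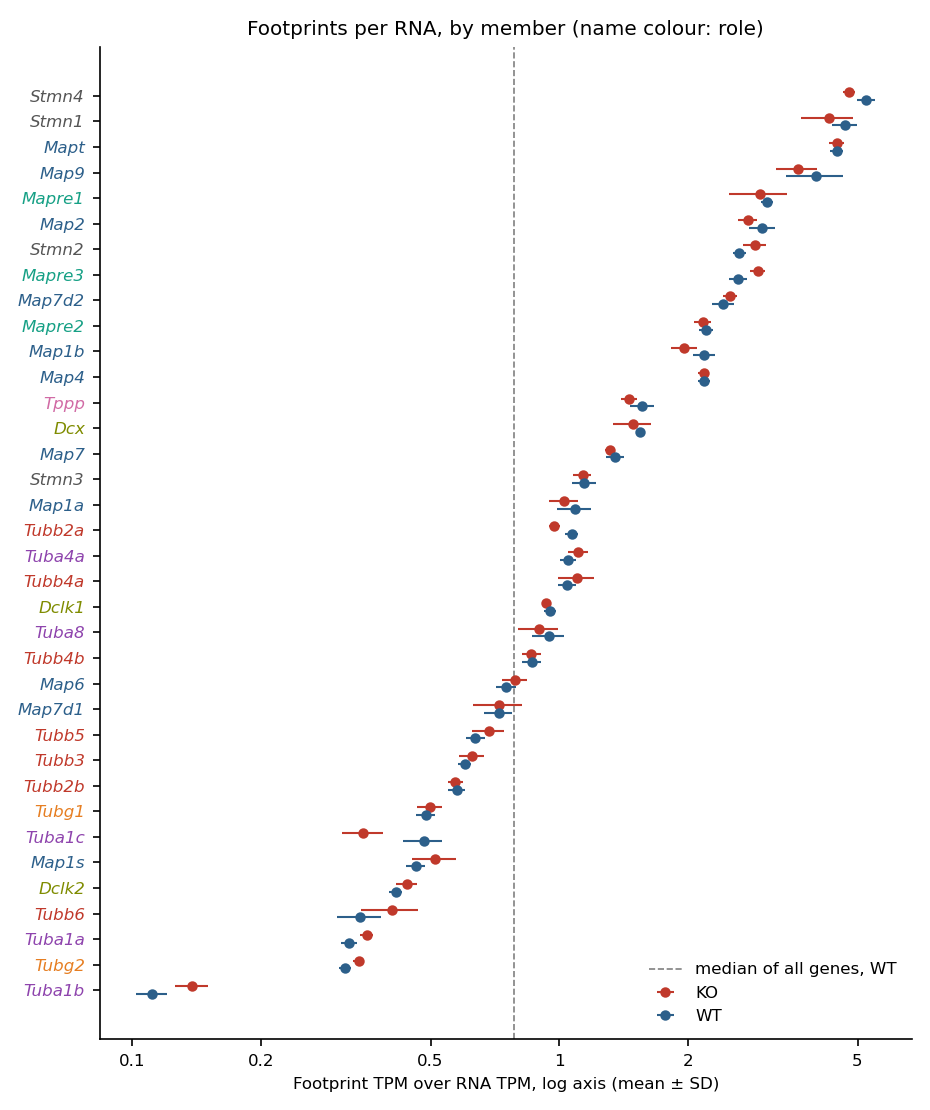
Footprint TPM over RNA TPM for each of the 36 genes on a log axis, as mean ± SD over 3 KO and 4 WT replicates, ordered by the WT mean, with a dashed line at the all-gene WT median of 0.785 and gene names coloured by role. Stmn4, Stmn1, Stmn2, the end-binding genes and several MAPs lie at the high end and the tubulins at or below 1.11. KO and WT points lie close together in many genes and further apart for Tuba1b and for Tuba1c, which is near the floor of the values.

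Other genes that act on microtubules were examined from a list of 91, of which 90 had a row and Svbp had none. In KO footprints 20 of the 90 rose and 3 fell, against 8.15% and 10.4% of all genes. In RNA 3 of the 90 rose, against 2.11% of all genes. Of the 5 collapsin response mediator proteins, which bind tubulin dimers, 4 rose. Dpysl3 averaged 65.7 ± 1.97 TPM in KO and 56.1 ± 1.31 TPM in WT (log2 fold change 0.22 ± 0.033, adjusted p = 0.00173), Dpysl5 averaged 40.3 ± 1.91 TPM in KO and 34.4 ± 0.992 TPM in WT (0.22 ± 0.039, adjusted p = 0.0034) and Crmp1 averaged 161 ± 10.1 TPM in KO and 134 ± 7.43 TPM in WT (0.25 ± 0.045, adjusted p = 0.0039). Clip3, a CAP-Gly protein, averaged 498 ± 9.34 TPM in KO and 433 ± 5.09 TPM in WT (0.19 ± 0.031, adjusted p = 0.00235).

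Of the 8 kinases that act on MAPs 4 rose, and of the 6 tubulin folding factors 3 rose. Among 17 genes of microtubule ends and crosslinkers 4 rose and 2 fell, and among 17 tubulin-modifying genes 2 rose and 1 fell. Among 18 nucleation genes 1 rose, among 11 other binders 2 rose, and among 8 severing genes none passed with edgeR, with a median log2 fold change of 0.025. The shares over all genes were 8.15% higher and 10.4% lower. In groups this small, counts of 1 or 2 do not stand out from those shares. The 3 that fell were Camsap2, which caps minus ends (-0.16 ± 0.038, adjusted p = 0.0131), Agtpbp1, which removes glutamates from tubulin tails (-0.15 ± 0.041, adjusted p = 0.023), and Slain1, a plus-end protein (-0.13 ± 0.037, adjusted p = 0.0318). Ttc5, which recognises nascent tubulin chains when free tubulin is in excess and starts the decay of their mRNAs, was chosen after its value was seen. It averaged 32.3 ± 0.304 TPM in KO and 31.0 ± 0.972 TPM in WT in footprints and did not pass (0.054 ± 0.039, adjusted p = 0.483).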

How the data were processed

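Ribosome footprints and cytoplasmic RNA of the same slice lysates were compared between Fmr1 KO (3 libraries per assay) and WT (4 per assay). The labels list 19 samples, of which 14 have columns in the tables and 5 are not analysed here. Slices of 6 to 8 mice were pooled per replicate, so p-values measure the spread between pools. The deposited values are RSEM estimated counts and TPM per gene. Per the submitters' processing notes, Trimmomatic 0.32, cutadapt 1.7.1, Bowtie2 2.1.0, TopHat2 2.0.9, SAMtools 0.0.19, bedtools and RSEM 1.2.11 were used with build mm10. The deposited TPM sum to 1008322 to 1014087 per library, have no value below 0.880, and vary along replicates 1 and 2 against the rest by 3.74% (footprints) and 2.00% (RNA) of the within-group variance, where an equal share is 20%. What produced this is not given in the sources used here.

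From the deposited estimated counts, rounded to whole numbers, edgeR 4.0.16 in R 4.3.3 gave every adjusted p unless another tool is named (minimum count 10, TMM within assay, robust quasi-likelihood F-test, Benjamini-Hochberg over all genes of an assay). Each SE was obtained by dividing the size of the log2 fold change by the root of its F statistic. TE was the assay by genotype interaction over 14 libraries, which treats the paired libraries of a lysate as independent. Alternatives were DESeq2 1.42.0, limma 3.58.1 on log2(TPM + 1) and other pseudocounts, other scalings and filters, a replicate block, a length trend removed, a covariate for replicates 1 and 2, and leaving out each library. For TE, the RNA and footprint libraries of a lysate were left out together. On simulated data (dispersion 0.004) the test recovered 30% of footprint and 10.4% of RNA changes of 0.25 on the log2 scale, and 88% and 58% of changes of 0.5. The changed genes were drawn at random from all genes, and simulated counts varied more than the real low counts. Recovery may therefore differ for the genes described here.

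The 36 genes, the list of 91 further genes and the marker lists were chosen with earlier results of these data known. Full values are given for the 5 largest called rises and falls in footprints, up to 4 each way in RNA and TE, and the member of each role with the highest WT footprint level. Tuba1b and Dcx were added after their values were seen, and the others are given by mean and test. Same-numbered KO and WT libraries were not paired in the main fit, because the labels do not say that they belong together. Their deviations correlated at -0.0836, -0.0665 and -0.343 in RNA and at -0.108, 0.00700 and -0.441 in footprints. These values cannot decide the pairing, since the deposited values vary little along replicates 1 and 2 against the rest.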

Additional observations from a re-analysis of the deposited data

Results flagged for a closer look

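In the 4 WT libraries of each assay, the 36 genes give 72 sets of values, and 4 of them hold a library far from the other 3 by Dixon's criterion, where chance alone gives about 1 in 20. Tubb2b RNA was 184 TPM in WT replicate 2, against 197.2 to 197.6 TPM in the other WT libraries, and Map1s RNA was 58.2 TPM in the same replicate, against 61.3 to 61.7. Dcx footprints were 20.9 TPM in WT replicate 1, against 23.4 to 23.8 TPM in the others, and Stmn2 footprints were 990.7 TPM in WT replicate 2, against 1039.8 to 1047 TPM. Of these genes Tubb2b is the one with a call in the same assay, and its RNA call is lost without that library.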

How the results depend on the processing

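Among the 32 member results that were called in at least 1 setting, no fold change reversed; the others were not followed through the settings. The footprint calls of Tuba1a, Tuba4a, Tubb2a, Tubb2b, Tubb4b, Tubb5, Map2, Mapre1 and Dclk1 and the RNA call of Tubb2a passed in all 19 alternatives. The labels do not say whether the replicate numbers pair the genotypes. A replicate block called 429 genes higher and 875 lower in footprints (8 members higher), 73 and 131 in RNA, and 0 and 0 in TE. Under it Tuba1b, Tubb3, Tubb4a, Tubb6, Map1b, Mapre3 and Stmn1 lost their footprint calls and Tubb2b its RNA call. With the length trend removed as well, the counts were 675 and 992 (1 member lower), 71 and 103, and 0 and 1. Map1a lost its call there (adjusted p = 0.105). The covariate for replicates 1 and 2 called 151 genes higher and 211 lower in RNA, and Stmn1 missed the footprint threshold (0.0542). DESeq2 called 7 members higher in RNA and 1 in TE, and 47 and 44 genes in TE. For TE, limma with the 3 pseudocount settings called 39, 39 and 40 genes higher and 31, 30 and 25 lower, a minimum count of 50 called 4 higher, and removal of the length trend called 11 higher and 7 lower. Leaving out 1 library gave 719 to 1086 genes higher in footprints (754 without KO replicate 3 and 719 without WT replicate 4), and 94 to 352 higher and 122 to 520 lower in RNA. For TE, the RNA and footprint libraries of a lysate were left out together. This gave 1 to 59 genes higher and 1 to 11 lower in TE, where 59 and 11 were reached without KO replicate 3. In RNA the lowest counts were 94 higher without WT replicate 4 and 122 lower without KO replicate 2. Each count was over 1.5 times smaller without either of these, and also without KO replicate 1, WT replicate 1, WT replicate 2 or, for the lower count, WT replicate 3. Members higher in RNA numbered 2 to 5, and members higher in footprints 11 to 15. In CPM the median ratio was 1.31 in KO and 1.30 in WT. The cause of these differences was not tested.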

Other observations

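Marker lists of the cells and regions that slices can hold were counted in KO against WT footprints. Over all genes tested, 8.15% rose and 10.4% fell in footprints, and in lists this short a count of 1 does not stand out from those shares. Of the 7 neuronal markers 1 rose and none fell, and of the 6 markers of immature neurons 1 fell. Oligodendrocyte precursor markers fell in 3 of 7, and their summed level was 339.5 to 369.8 TPM in KO and 361 to 391.5 TPM in WT. Astrocyte markers rose in 2 and fell in 2 of 9. Fibroblast markers fell in 5 of 6, with a sum of 151 to 158 TPM in KO and 192 to 214 TPM in WT. Endothelial and mural markers fell in 4 of 9. Ependymal and choroid plexus markers rose in 1 and fell in 1 of the 7 with a row. Interneuron markers rose in 1 and fell in 3 of 8. Markers of CA1 rose in 2 and fell in 1 of 5, those of the dentate gyrus rose in 1 and fell in 1 of 6, and those of CA3 fell in 2 of 4, with a sum of 98.2 to 103 TPM in KO and 104 to 111 TPM in WT. Footprints of genes listed for CA3 were thus detected, although the protocol removed CA3. No CA3-free tissue was available for comparison, so this does not show that CA3 remained in the slices. In RNA, microglial markers fell in 7 of 10, against 2.77% of all genes, and thalamic markers rose in 3 of 6, against 2.11% of all genes.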
